A study of Mus musculus with 10 samples.

Results

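The genes described here are 8 components of the apoptosis machinery, measured in mouse blood neutrophils: the caspases Casp8 and Casp9, the caspase activator Apaf1, the inhibitor of apoptosis genes Xiap, Birc2 and Birc3, the caspase-8 regulator Cflar and the death receptor Fas. They were chosen by gene symbol. Where several probe sets name a gene alone, the one brightest on average across the 10 arrays was read. All 8 were on the array, which held 17097 named genes in all, and all 8 were among the 10734 genes whose mean signal lay above the median of all probe sets, a log2 signal of 4.58, so that no member was lost to the filter on low values.

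The samples were neutrophils from blood of untreated male C57BL/6 mice, 3 months old and 9 days in the facility, with no genetic modification named in the labels. One group, individual_mouse, held 5 arrays, 1 for each of 5 mice. The other, pooled_blood, held 5 arrays of blood pooled from 5 other mice and split into 5 portions before the cells were isolated. The pool arrays are therefore repeats of 1 sample: their spread holds only what cell isolation and every later step add, and none of it lies between mice. All 10 samples were isolated with an antibody to Ly6G, at purities the labels give only as a range of 71.5 to 99.5%, and labelled in a protocol that amplifies the RNA through 2 cycles. Values are log2 signals, on which a difference between arrays can be read for 1 gene at a time and a level cannot be set against that of another gene. The number of arrays limits the precision.

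Neutrophils circulate for a short time and die by apoptosis. In the death receptor pathway, Fas recruits the initiator Casp8, which Cflar holds in check. In the mitochondrial pathway, released cytochrome c assembles with Apaf1 into the apoptosome, which activates Casp9. Xiap binds and blocks caspases directly, while Birc2 and Birc3 are ubiquitin ligases that act mainly on the signalling complexes of tumour necrosis factor receptors.

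The array of mouse 5 stood apart from the others. Its 95th percentile of signal was 7.44 against 8.71 to 9.25 in the other 9 arrays, and the 3′ control probe set of Gapdh read 7.78 against 11.62 to 12.25. The gap between the 3′ and 5′ control probe sets of Actb, a measure of how much of a transcript the labelling reached, was 4.57 in mouse 5, 4.41 in mouse 3 and 1.28 to 2.72 elsewhere. For Gapdh the same gap was smallest in mouse 5 (3.05, against 3.38 to 6.16 elsewhere), so the control genes ran in opposite directions. The deposited arrays did not share a common distribution, so the lower upper range of mouse 5 is part of its values and of the folds given for it. The neutrophil markers S100a8 and S100a9 were high in every array (12.28 to 13.29). Csf3r, Cxcr2 and Mmp9 were lower in mouse 5 (9.68, 6.67 and 8.38) than elsewhere (11.42 to 12.55, 9.81 to 10.80 and 11.48 to 12.29). The mean of the 5 neutrophil markers with a value was 10.12 in mouse 5 and 11.54 to 12.33 elsewhere. Of the lists of other cell types, 4 had their lowest means in mice 4 and 5. These were B cell (5.12 and 6.36, against 7.39 to 9.07 elsewhere) and dendritic cell and MHC class II, called MHC class II below (7.31 and 8.25, against 9.47 to 10.60). The others were erythroid (6.54 and 6.80, against 7.60 to 9.51) and monocyte and macrophage (5.98 and 6.39, against 6.72 to 7.69). Not every marker of these lists fell. Ccr2 (7.02 and 7.04, against 6.12 to 6.48) and Flt3 (6.90 and 7.08, against 6.35 to 6.82) were highest in mice 4 and 5. In mouse 5, H2-Aa (12.06), Cd79a (7.40) and Alas2 (7.05) lay within the range of the other arrays. The mean of the T cell list was 5.06 to 5.39 in the mice and 5.37 to 5.55 in the pool. Of its 7 markers with a value, only Lat separated the groups (5.77 to 7.02 in the mice, 8.24 to 8.70 in the pool). The mean differences of the other T cell markers were -0.09 to 0.10. The mean of the eosinophil list was 4.01 to 4.59 in all arrays. Of its 4 markers only Siglecf lay above the filter, and it read 4.06 in mouse 5 against 6.05 to 7.79 elsewhere. In bulk samples, fewer cells of a type and less RNA per cell cannot be told apart. The spread of each member is given with mouse 5 and without it.

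Birc2 and Birc3 are neighbours on chromosome 9 with no protein coding gene between them, and Casp9 is the only member still called more variable once the array of mouse 5 is left out. Their promoters are shown because these 3 genes differ in the results that follow. Each is a RefSeq window of 300 bases around the annotated start, most of it upstream (GRCm38.p6), read 5′ to 3′ on the strand of the gene. Capitals mark GC boxes, GGGCGG or its reverse complement CCGCCC. The windows are Casp9 at chr4:141793362-141793661 on the plus strand, Birc2 at chr9:7836757-7837056 on the minus strand and Birc3 at chr9:7873121-7873420 on the minus strand.
Casp9: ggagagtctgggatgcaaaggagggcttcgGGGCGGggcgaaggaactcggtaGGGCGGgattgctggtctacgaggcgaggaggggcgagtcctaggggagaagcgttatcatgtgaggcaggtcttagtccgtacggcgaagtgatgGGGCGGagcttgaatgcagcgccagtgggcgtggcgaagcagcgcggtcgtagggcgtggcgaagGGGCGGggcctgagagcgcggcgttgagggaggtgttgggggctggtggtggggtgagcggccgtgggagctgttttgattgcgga
Birc2: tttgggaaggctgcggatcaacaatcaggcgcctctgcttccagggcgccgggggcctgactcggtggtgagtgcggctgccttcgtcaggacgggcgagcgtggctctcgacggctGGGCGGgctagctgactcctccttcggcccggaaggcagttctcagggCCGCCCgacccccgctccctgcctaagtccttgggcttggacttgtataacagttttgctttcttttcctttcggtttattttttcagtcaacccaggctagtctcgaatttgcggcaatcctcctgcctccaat
Birc3: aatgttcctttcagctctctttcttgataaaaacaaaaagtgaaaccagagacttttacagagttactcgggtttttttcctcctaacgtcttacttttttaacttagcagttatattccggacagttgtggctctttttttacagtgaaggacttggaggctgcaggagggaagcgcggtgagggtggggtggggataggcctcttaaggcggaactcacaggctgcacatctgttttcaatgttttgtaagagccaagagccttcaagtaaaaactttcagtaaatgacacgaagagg
The Casp9 window held 4 GC boxes, the nearest 36 bases before the start. The Birc2 window held 2, at 133 and 85 bases before the start, and a further Birc2 window for another annotated start held none. The Birc3 window held none. A GC box was found in at least 1 window of Casp9, Apaf1, Xiap, Birc2 and Fas and in none of Casp8, Birc3 or Cflar. The motif was chosen after the values were seen. It was present in 35.7% of all 32851 RefSeq promoter windows, in at least 1 window of 65.8% of the 5798 genes called more variable between mice (by the test described next) that had a window, and in 63.7% of the 2871 other tested genes with a window. TATAAA, searched on both strands, was found in a window of Cflar and of Xiap and in 13.6% of all windows.

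The question the design addresses is how far a gene differs between mice beyond the noise of the procedure. The spread among the 5 mice was set against the spread among the 5 pool arrays with a one-sided F test, whose pool variance was moderated across genes with limma, and p-values were adjusted by the Benjamini-Hochberg method over all 10734 genes. Of the 8 members, 5 were more variable between mice at an adjusted p under 0.05: Apaf1, Fas, Xiap, Casp9 and Birc2. That is 62.5% of the members, beside 66.8% of all tested genes, a share near the background. Leaving out mouse 5 gave 1 of 8, Casp9, beside 20.3% of all tested genes. Without mice 4 and 5 it was 0 of 8, beside 0.708%. Mouse 5 was the lowest of the mice in 8 of 8 members and in 46.1% of all tested genes. That share was not matched for signal. Of the members, 7 passed a filter at the 75th percentile, and the upper range of mouse 5 was low. Ranked within its own array, mouse 5 was the lowest array in Fas, Apaf1, Xiap and Casp9. It was not the lowest in Birc2 (percentile 94.96, others 90.71 to 98.36), Casp8 (72.88, others 60.56 to 77.55), Cflar or Birc3. The 8 of 8 thus cannot be read as particular to the members. The median SD of the members was 0.88 between mice and 0.31 between pool arrays, and 0.57 and 0.23 over all tested genes. With mouse 5 left out, the medians between mice were 0.29 for the members and 0.33 for all tested genes. No member and no gene (0%) was called less variable between mice than between pool arrays by limma, with 58 genes at an unadjusted p under 0.05 and no member among them.

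**Figure D1:**
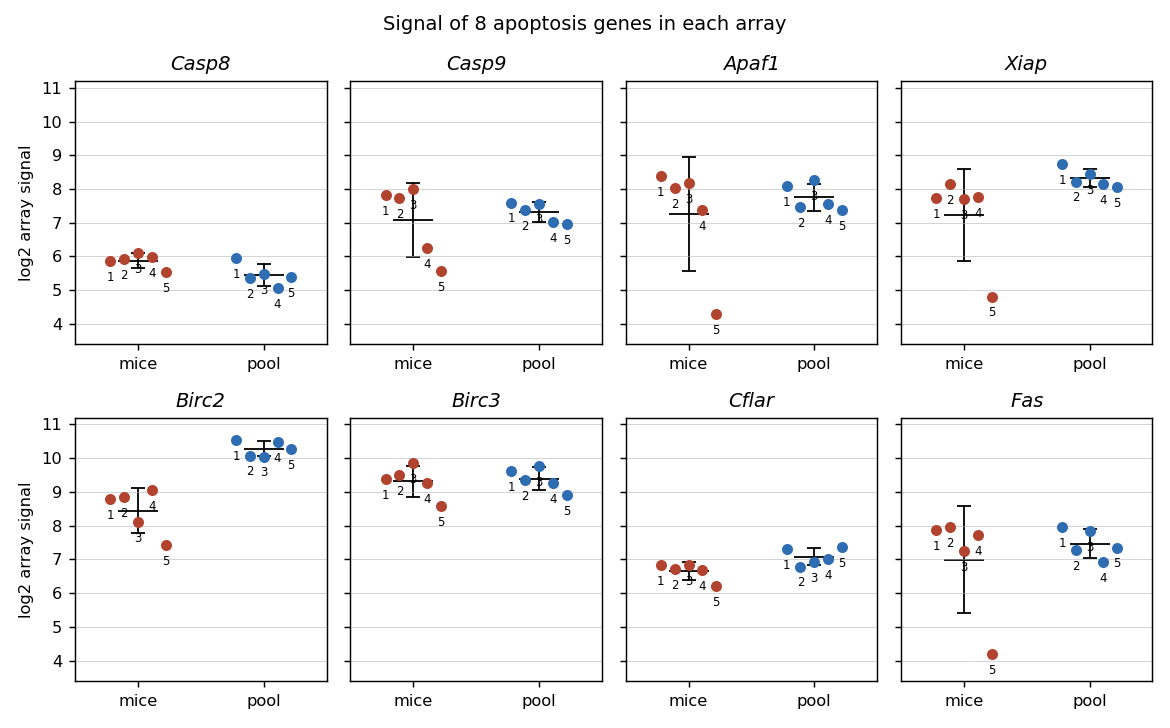
Log2 array signal of the 8 members in each of the 5 mice (red) and 5 pool arrays (blue), numbered by array, with the group mean as a horizontal bar and the SD as a vertical one. Mouse 5 is the lowest mouse in every panel, by the widest gap in Apaf1, Fas and Xiap, while in Birc2 all 5 mice lie below all 5 pool arrays.

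Fas, the receptor at the head of the extrinsic pathway (probe set 1460251_PM_at), read 7.87, 7.96, 7.24, 7.73 and 4.19 in mice 1 to 5. Its pool arrays read 7.95, 7.27, 7.83, 6.91 and 7.35. Mice 1 to 4 lay in or just above the range of the pool, and mouse 5 was 11.4-fold below the mean of the other mice. The SD was 1.60 between mice and 0.43 between pool arrays (n = 5 each, limma F test adjusted p = 0.000307). Among mice 1 to 4 the SD was 0.32 and the adjusted p 0.683. Within its own array, Fas ranked at the 84.9th to 90.9th percentile of all probe sets in 9 arrays and at the 32.4th in mouse 5.

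Casp8, the initiator caspase of death receptors (probe set 1424552_PM_at), had one of the narrower ranges among the members. It read 5.86, 5.93, 6.09, 5.99 and 5.53 in mice 1 to 5, and 5.96, 5.36, 5.47, 5.07 and 5.40 in the pool. The groups overlapped, the mice lay mostly in the upper part of the joint range, and the spread was smaller between mice (SD 0.21) than between repeats of the pool (SD 0.32). The adjusted p for more variation between mice was 0.618, and 0.965 without mouse 5 (limma F test). The mean of the mice was above that of the pool by 0.43 ± 0.22 (SE), and by 0.52 without mouse 5, and neither difference passed the test (limma adjusted p = 0.999 and 0.207).

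Cflar, which encodes c-FLIP, a catalytically inactive relative of Casp8 that controls its activation, lies beside Casp8 on chromosome 1 with no protein coding gene between them. Probe set 1449317_PM_at read 6.83, 6.72, 6.84, 6.69 and 6.22 in mice 1 to 5 and 7.32, 6.79, 6.91, 7.01 and 7.36 in the pool. Mice 1 to 4 lay close together, mouse 5 was the lowest array of all, and only mice 1 and 3 reached the lowest pool array. Within its own array, however, Cflar ranked at the 85.7th percentile in mouse 5 and at the 81.6th to 89.0th in the others. The SD was 0.25 in both groups (adjusted p = 0.508, limma F test) and 0.08 among mice 1 to 4 (adjusted p = 0.987). The mean of the mice was below that of the pool, by a log2 difference of -0.42 with mouse 5 and -0.31 without it, and neither passed the test (limma adjusted p = 0.999 and 0.486). Other Cflar probe sets, given below, differed from this one in spread.

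Apaf1, the scaffold of the apoptosome (probe set 1452870_PM_at), had the largest spread of the members. It read 8.38, 8.04, 8.17, 7.38 and 4.30 in mice 1 to 5 and 8.09, 7.46, 8.27, 7.55 and 7.38 in the pool. Mouse 5 was 12.9-fold below the mean of mice 1 to 4, whose own values spanned much the same range as the pool. Mouse 4 was the next lowest, level with the lowest pool array, and differed from the mean of mice 1 to 3 by a log2 value of -0.82. The SD was 1.69 between mice and 0.40 between pool arrays (adjusted p = 0.000221, limma F test). Among mice 1 to 4 the SD was 0.43 and the adjusted p 0.446. Apaf1 ranked at the 35.9th percentile of the mouse 5 array and at the 88.3rd to 92.5th in the others.

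Casp9, the protease that the apoptosome activates (probe set 1437537_PM_at), was the member in which mouse 4 departed furthest from mice 1 to 3. It read 7.81, 7.74, 8.00, 6.26 and 5.56 in mice 1 to 5 and 7.60, 7.37, 7.57, 7.02 and 6.97 in the pool. Mice 4 and 5 were below every pool array and mice 1 to 3 above every one. The SD was 1.10 between mice and 0.30 between pool arrays (adjusted p = 0.000983, limma F test). Without mouse 5 the SD was 0.80 and the gene was still called (adjusted p = 0.0308). Mouse 4 differed from the mean of mice 1 to 3 by a log2 value of -1.59, and without mice 4 and 5 the SD was 0.14. Mice 4 and 5 were also the arrays lowest in the means of the B cell, MHC class II, erythroid and monocyte lists given above. The part of those cells in the Casp9 values was not tested.

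The second Casp9 probe set ran the other way. Probe set 1426125_PM_a_at read 5.49, 5.49, 5.37, 6.31 and 6.99 in mice 1 to 5 and 5.57 to 5.95 in the pool. In mice 4 and 5, where the chosen probe set was lowest, it was highest. The spread between mice is thus seen by both probe sets, and its direction in mice 4 and 5 depends on which is read.

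Xiap, the inhibitor that binds caspases directly (probe set 1437533_PM_at), read 7.74, 8.15, 7.71, 7.75 and 4.81 in mice 1 to 5. In the pool it read 8.75, 8.22, 8.45, 8.15 and 8.07. Mouse 5 was 8.17-fold below the mean of mice 1 to 4, and of the 5 mice only mouse 2 reached the range of the pool. The SD was 1.37 between mice and 0.27 between pool arrays (adjusted p = 0.000339, limma F test). Among mice 1 to 4 it was 0.21, below that of the pool (adjusted p = 0.853). The mean of the mice was below that of the pool by a log2 difference of -1.10 with mouse 5 and -0.49 without it, and neither passed the test (limma adjusted p = 0.999 and 0.318).

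Birc2, which encodes the ubiquitin ligase cIAP1 (probe set 1418854_PM_at), was the only member whose groups did not overlap. It read 8.78, 8.85, 8.11, 9.05 and 7.43 in mice 1 to 5 and 10.55, 10.08, 10.05, 10.47 and 10.26 in the pool. Every mouse was below every pool array. Among all tested genes, 5.47% had all 5 mice below all 5 pool arrays, and 1 of the 8 members did. The pool mean was 3.58-fold the mean of the mice, a log2 difference of -1.84 ± 0.39 (SE; 95% interval -2.78 to -0.90). With the error taken from the spread between mice, since the pool is 1 sample of 5 mice, the unadjusted p was 0.00285 and the limma adjusted p 0.199. Without mouse 5 the difference was -1.59 (limma adjusted p = 0.0546). Without mice 4 and 5 it was -1.70 and passed (limma adjusted p = 0.0427), beside 431 of the 10734 tested genes. No tested gene (0%) passed this comparison of means with all 5 mice. By this test Birc2 was the only member with an unadjusted p under 0.05, beside 584 of all tested genes. An exact two-sided permutation test of the means, which takes the pool arrays as samples like the mice, gave unadjusted p-values of 0.00794 for Birc2, the smallest it allows, 0.0159 for Xiap, 0.0238 for Cflar and 0.0397 for Casp8. Those of the other 4 members were 0.667 to 0.794. Because the pool arrays repeat 1 sample, these permutation p-values do not measure the error of a mean over mice. The permutation was run on the members only, so no share over all genes can be set beside it. The differences of Casp9, Apaf1 and Fas were -0.23, -0.50 and -0.46 with mouse 5 and 0.15, 0.24 and 0.24 without it.

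The spread of Birc2 was also larger between mice (SD 0.67) than between pool arrays (SD 0.23; adjusted p = 0.0330, limma F test). Without mouse 5 the SD between mice was 0.41 and the adjusted p 0.421. The call was also lost without the array of pool 2 (adjusted p = 0.0600) and without that of pool 4 (adjusted p = 0.0799). All 6 platelet markers were, like Birc2, lower in every mouse than in every pool array. Their mean was 10.67, 11.07, 9.48, 10.53 and 10.12 in mice 1 to 5 and 12.08 to 12.49 in the pool, and the marker Pf4 was at 11.54 or above in every array. The mean of the monocyte and macrophage list was also lower in every mouse (5.98 to 7.03) than in the pool (7.05 to 7.69). Of its 7 markers with a value, only F13a1 separated the groups, with a mean difference of -2.47. The mean differences of the other monocyte and macrophage markers were -1.33 to 0.22. The list mean without F13a1 was not computed. The part of platelets or monocytes in the Birc2 difference was not tested.

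Birc3, which encodes cIAP2, the closest relative of Birc2 (probe set 1421392_PM_a_at), showed no such gap. It read 9.37, 9.50, 9.85, 9.27 and 8.59 in mice 1 to 5 and 9.63, 9.36, 9.78, 9.26 and 8.90 in the pool. The groups overlapped over nearly their whole range. The means differed by -0.07, and by 0.11 without mouse 5, 0.30 after quantile normalization and 0.49 with the other probe set above the filter, so the difference had no settled sign. The SD was 0.46 between mice and 0.34 between pool arrays (adjusted p = 0.247, limma F test), and 0.25 among mice 1 to 4 (adjusted p = 0.822). With the other probe set the spread was called (adjusted p = 0.0110). Although mouse 5 had the lowest signal, Birc3 ranked highest there within the array, at the 97.5th percentile against 95.6 to 96.8 in the other 9 arrays.

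**Figure D2:**
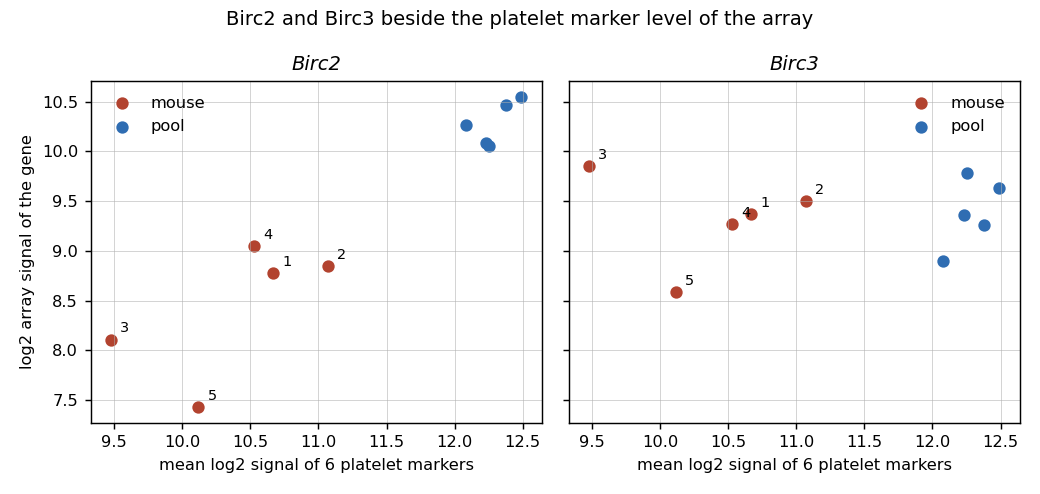
Log2 signal of Birc2 (left) and Birc3 (right) against the mean log2 signal of 6 platelet markers in the same array, for 5 mice (red, numbered) and 5 pool arrays (blue). Birc2 and the platelet markers both separate the mice from the pool, whereas Birc3 covers the same range in both groups.

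**Figure D3:**
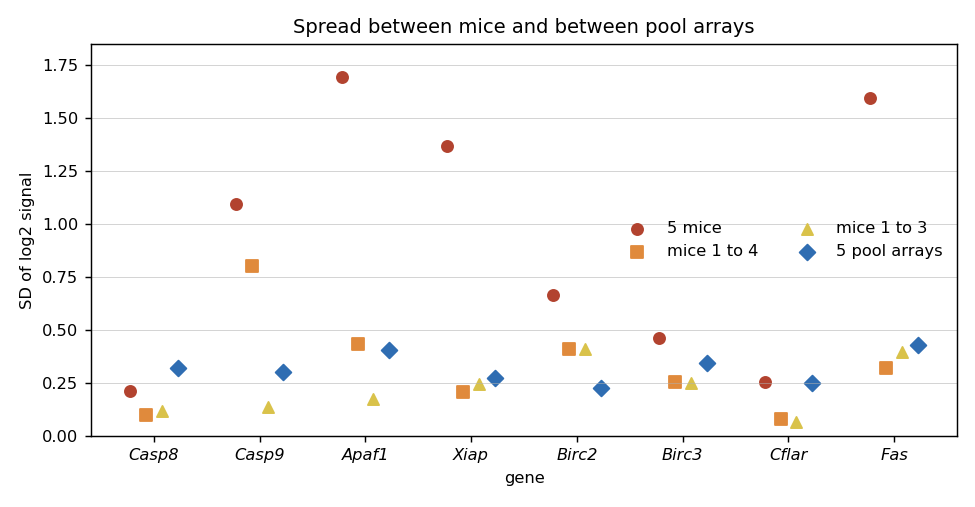
SD of the log2 signal of each member among 5 mice, among mice 1 to 4, among mice 1 to 3 and among the 5 pool arrays. The spread of Apaf1, Fas and Xiap falls to near that of the pool once mouse 5 is left out, and that of Casp9 once mouse 4 is left out too.

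With all 5 mice, the spread was also compared in a permutation test on values centred within each group. It ran over all 252 ways to assign 5 of the 10 arrays to the mice. Because the centring uses means estimated from the same arrays, its p-values are approximate. Unadjusted and one-sided, they were 0.00397 for Casp9, the smallest this design allows, 0.0119 for Xiap and for Birc2, 0.0317 for Apaf1 and 0.0833 for Fas. Those of Birc3, Cflar and Casp8 were 0.337, 0.476 and 0.742. Apart from Fas, the members under 0.05 by this test were those the F test called.

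The members had 21 probe sets in all, 15 of them above the filter. Of these 15, 10 were lower in mouse 5 than in each of mice 1 to 4 and 2 were higher. Counted per gene, mouse 5 was the lowest mouse in 46.1% of all tested genes and the highest in 3015 of 10734. The share over all probe sets was not counted. The Xiap probe set 1456088_PM_at read 5.81, 7.41, 6.05, 6.08 and 6.02 in mice 1 to 5 against a pool range of 6.97 to 7.58. Mouse 5 was not set apart in it, and mouse 2 was high. The Birc3 probe set 1425223_PM_at read 5.73, 5.57, 6.06, 7.02 and 5.76 in the mice and 5.23 to 5.87 in the pool, and was high in mouse 4. Cflar had 4 further probe sets. Of these, 1424996_PM_at read 6.52, 6.89, 6.82, 6.95 and 4.24 in the mice against 6.84 to 7.42 in the pool, and 1425687_PM_at read 6.04, 6.18, 6.19, 4.62 and 4.30 against 6.35 to 6.70. The SDs between mice and between pool arrays were 1.16 and 0.23 in 1424996_PM_at and 0.93 and 0.14 in 1425687_PM_at. They were 0.22 and 0.17 in 1453482_PM_at and 0.09 and 0.15 in 1425686_PM_at. Without mouse 5, the SD between mice was 0.19 in 1424996_PM_at and 0.76 in 1425687_PM_at. The spread of 1424996_PM_at and 1425687_PM_at was not tested. All 5 Cflar probe sets had a lower mean in the mice than in the pool, and in 1425687_PM_at and 1425686_PM_at the groups did not overlap, beside 5.44% of all probe sets above the filter that name 1 gene with every mouse below every pool array. Which transcripts each probe set reads was not analysed here.

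**Figure D4:**
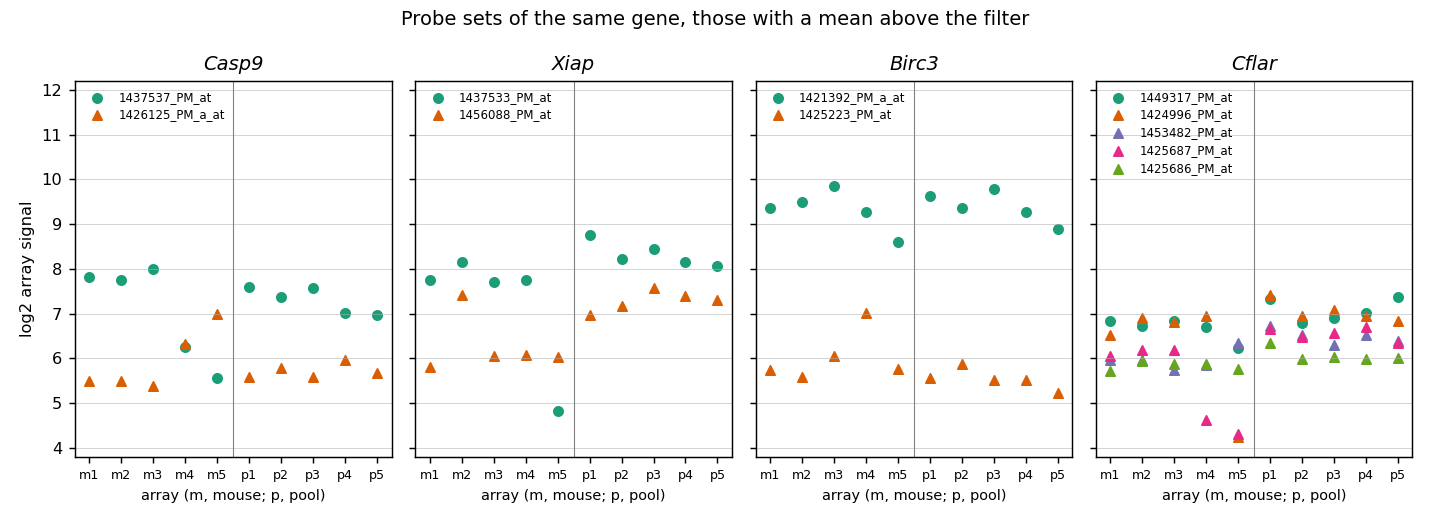
Log2 signal by array of every probe set above the filter for Casp9, Xiap, Birc3 and Cflar, with circles for the probe set used and triangles for the others, and a vertical line between mice and pool. The Casp9 probe sets move in opposite directions in mice 4 and 5, and the Cflar probe sets differ in how far mouse 5 falls.

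A wider list of the pathway held 44 other genes, of which 39 were on the array by name and 30 were tested. Of these 30, 19 were more variable between mice (63.3%, beside 66.8% of all tested genes), 5 without mouse 5 (beside 20.3%) and 1 without mice 4 and 5 (beside 0.708%). By role, with all 5 mice, 2 of 4 tested caspases were called, 3 of 4 death receptors and ligands, 4 of 8 adaptors and kinases, 4 of 4 further genes of the inhibitor of apoptosis family, 3 of 5 antagonists and mitochondrial proteins and 3 of 5 caspase substrates. Without mouse 5 these counts were 0, 0, 2, 1, 1 and 1. The median log2 variance ratio of mice over pool was 2.65 for the list and 2.72 for all tested genes.

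The widest spreads of the list were in Htra2, a mitochondrial protease that antagonizes the inhibitors of apoptosis, and Parp1, a DNA repair enzyme cleaved by caspases. Htra2 read 7.66, 7.80, 6.93, 6.25 and 3.86 in mice 1 to 5 and 6.85 to 7.48 in the pool (SD 1.60 and 0.24; limma F test adjusted p = 9.7e-05, and 0.0327 without mouse 5). Parp1 read 7.54, 7.76, 8.34, 4.30 and 7.27 in the mice against a pool range of 6.67 to 7.77, with its low array in mouse 4 and not mouse 5 (adjusted p = 0.000356, and 0.000717 without mouse 5). Like Casp9, both were below the pool in mouse 4.

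Naip2 and Naip5, relatives of Xiap that sense bacterial proteins for the inflammasome, were low in mouse 5 alone. Naip2 read 7.20, 7.24, 6.94, 7.87 and 4.37 (SD 1.36), and Naip5 read 7.02, 6.76, 7.70, 6.67 and 4.47 (SD 1.22). The tumour necrosis factor receptor gene Tnfrsf1a (SD 1.29) was at 10.20 to 11.09 in mice 1 to 4 and 8.03 in mouse 5. Casp1, the inflammasome protease (SD 1.27), was at 7.57 to 8.48 in mice 1 to 4 and 5.51 in mouse 5. All 4 were called with mouse 5 and none without it.

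Traf1, an adaptor found with Traf2 in the receptor complexes that recruit Birc2 and Birc3, departed from this pattern. It read 4.40, 4.63, 6.40, 4.69 and 5.10 in mice 1 to 5 and 4.76 to 5.06 in the pool, and its high array was mouse 3. It was called with all mice (adjusted p = 0.000146, limma F test), without mouse 5 (0.000331) and without mice 4 and 5 (0.000877). The kinase gene Ripk3, which drives necroptosis, read 5.31, 5.31, 6.09, 4.12 and 4.79 in the mice and 4.86 to 5.51 in the pool. Birc6, a very large ubiquitin ligase of the family, read 7.79, 7.72, 8.62, 6.64 and 7.05 in the mice and 7.31 to 7.89 in the pool. Both were highest in mouse 3 and lowest in mouse 4, and both were called without mouse 5 (limma F test adjusted p = 0.00335 and 0.0243). Among the mice, the means of the B cell, MHC class II and monocyte lists were also highest in mouse 3 (9.07, 10.60 and 7.03). They were lowest in mouse 4 (5.12, 7.31 and 5.98), and the part of those cells was not tested.

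In the comparison of means, no gene of the wider list passed with all 5 mice (beside 0% of all tested genes), and 2 had an unadjusted p under 0.05. One was Panx1, a channel opened by caspase cleavage, at 6.81 to 7.65 in the mice and 7.75 to 8.69 in the pool with no overlap (unadjusted p = 0.00272 with limma). The other was Casp6, an executioner caspase, at 6.00 to 7.23 in the mice and 7.00 to 7.94 in the pool (unadjusted p = 0.0379). Without mouse 5, 1 gene of the list passed, beside 1.52% of all tested genes. It was Casp2, an initiator caspase, at 7.64 to 7.97 in mice 1 to 4 and 6.36 to 7.41 in the pool (limma adjusted p = 0.0493). These 3 genes were named after their values were seen.

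The tested gene whose values ran closest to each member's over the 9 arrays without mouse 5 was Zbtb11 for Casp8 (Pearson r = 0.974), Dnajc8 for Casp9 (0.994), Fam76a for Apaf1 (0.983), Atp6v0e for Xiap (0.946), Ubash3b for Birc2 (0.996), Dusp1 for Birc3 (0.967), Memo1 for Cflar (0.953) and Sipa1l2 for Fas (0.965). With mouse 5 included, the nearest gene stayed the same for Xiap, Birc2 and Cflar. It became Csnk1g3 for Casp8 (0.939), Zfp410 for Casp9 (0.994), Slk for Apaf1 (0.998), Csnk1a1 for Birc3 (0.981) and 5430427O19Rik for Fas (0.995). Ubash3b was at 5.49 to 6.79 in the mice and 7.92 to 8.44 in the pool, the same separation as Birc2. These correlations describe at most 10 arrays, 5 of which repeat 1 sample, and each is the highest of 10734.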

How the data were processed

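Neutrophil RNA of 10 samples was hybridized to Affymetrix MG-430 PM arrays. The values the authors deposited are on a log2 scale, for each probe set on each array, and come from RMA per the submitters' processing notes; its version, background and normalization steps and genome build are not given in the sources used here, and the arrays do not share a common distribution. Of 45141 probe sets, 28898 name a single gene in GEO's platform annotation (104 controls, 551 with several symbols and 15588 with none were left out), and 28689 of these were matched to RefSeq by gene ID. The probe set with the highest mean was kept per gene (17097 genes), and the 10734 whose mean exceeded 4.58, the median over probe sets, were tested.

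Variances were compared with an F test on a pool variance moderated with an intensity trend, and means with a moderated test whose error came from the mice, in limma 3.58.1 (R 4.3.3), with Benjamini-Hochberg adjustment. The scripts were tested on simulated data. Figures and promoters used Python 3.11.15. The members and lists were chosen with earlier results of these data known. Named genes were the members, the 6 tested pathway genes with the largest SD between mice, those called without mouse 5, and the most correlated gene per member; Casp2, Casp6 and Panx1 were added after their values were seen. Alternatives were other normalizations, filters, probe sets, tests and omitted arrays.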

Additional observations from a re-analysis of the deposited data

Results flagged for a closer look

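In a group of 5 arrays, a value was singled out when the gap between the lowest or highest array and its nearest neighbour took up a larger share of the group's whole range than Dixon's 95% limit allows. Of the 16 groups read for the members, 4 were singled out, all through a low value in mouse 5. The gap took up 0.870 of the range between mice for Xiap, 0.808 for Fas, 0.753 for Apaf1 and 0.749 for Cflar. Of the 18 groups read for the named genes of the wider pathway list, 2 were singled out, Naip2 through a low value in mouse 5 (0.736) and Parp1 through a low value in mouse 4 (0.735). Chance alone singles out about 1 in 20 groups when genes are not picked by their values. The named genes of the wider list were picked for their spread between mice in these data, so that rate cannot be set beside their count. The members were chosen with earlier results of these data known, and mouse 5 was the lowest mouse in 46.1% of all tested genes. The share of all tested genes singled out was not counted, so the 4 of 16 cannot be read as particular to the members. The groups here are also not independent because they share the same arrays.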

How the results depend on the processing

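With no filter, 10967 of 17097 genes were more variable between mice, and 4432 of 6079 with a filter at the 75th percentile. The main fit called 7165 of 10734. Of the same 10734 genes, 3760 were called with an ordinary F test, 76 without mice 4 and 5, and 2176 to 7594 with each array left out. For the 8 members the counts were 0 without mice 4 and 5 and 1 to 5 with each array left out. For the 30 tested genes of the wider list they were 8 with the ordinary F test, 1 without mice 4 and 5 and 5 to 23 with each array left out. In the comparison of means, without mice 4 and 5, 1 member, 3 genes of the list and 431 of all genes passed. With an ordinary comparison of 2 groups, which takes the pool arrays as replicates, the counts were 1, 1 and 321. With each array left out, 0 to 1 of the list and 0 to 163 of all genes passed. Replicate numbers did not pair the arrays (correlations of -0.26 to 0.50, and 1 of 5 arrays nearest to its own number). The fit with the replicate block called 1 member (Birc2) and 197 of all genes. Differences of means turned sign for Birc3 with quantile normalization (0.30), the probe set of median mean (0.49), without mice 4 and 5 (0.19) and with each array left out (-0.20 to 0.11). They also did for Casp9 (0.22, 0.55, and -0.46 to 0.15 in the last 3 settings), and, without mice 4 and 5 and with each array left out, for Apaf1 (0.45; -0.78 to 0.24) and Fas (0.23; -0.71 to 0.24). Log2 variance ratios turned sign for Casp8 with arrays centred (0.32) and left out in turn (-2.62 to 0.54). They did for Cflar with arrays centred (0.75), the median probe set (0.19), the ordinary F test (0.036), no trend (0.23) and left out in turn (-3.51 to 0.34). Without mice 4 and 5 they did for Casp9 (-2.30), Apaf1 (-2.01), Xiap (-0.71) and Birc3 (-1.01), and with each array left out for Xiap (-1.17 to 4.73), Birc3 (-0.94 to 1.82) and Fas (-0.25 to 4.83). The call for Birc2 was lost with quantile normalization (adjusted p = 0.0642) and the ordinary F test (0.0664), and Birc3 was called with its other probe set (0.0110). The cause was not tested.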
